A study of Mus musculus with 2 samples.

Results

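The Klf and Sp genes encode transcription factors that carry 3 classical zinc fingers at the end of the protein and bind GC-rich boxes and CACCC boxes in promoters. They were examined here together with other zinc finger factors, namely Wt1, the Gli effectors of Hedgehog signalling and the Zeb and Snai repressors of epithelial genes. The members were chosen by name, as 34 gene symbols, and all RefSeq entries of these symbols were taken from the table of gene activity. All 34 symbols were present, with 37 of the 24165 entries. The values came from global run-on sequencing (GRO-seq) of untreated C2C12 cells, an established mouse line of muscle precursor cells (myoblasts), grown to 80% confluency. In this assay nuclei resume transcription with bromouridine, and reads from the labelled RNA mark engaged RNA polymerase II. The 2 replicate libraries were pooled before the values were computed, so every gene has a single value of activity, with no error over replicates, and no difference between genes could be tested against replicate variation. Activity is given in RPKmM, the number of reads per kilobase of mappable sequence scaled to sequencing depth, along the sense strand from 1 kb past the transcription start site (TSS) to the transcript end. It is a density per length and can be compared between genes. The number of reads behind each value is not known from the table.

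Klf proteins fall into groups by the cofactors they recruit. Klf1, Klf2, Klf4, Klf5, Klf6 and Klf7 act mainly as activators, Klf3, Klf8 and Klf12 recruit the corepressor CtBP, and Klf9, Klf10, Klf11, Klf13, Klf14 and Klf16 recruit the Sin3 corepressor. Sp1, Sp3 and Sp4 carry glutamine-rich domains, Sp2 is a more distant relative of these, and Sp5 to Sp9 are shorter proteins with roles in development. In muscle, Klf5 and Klf15 are known for roles in differentiation and metabolism, Sp1 binds promoters of many widely expressed genes, and Zeb1, Snai1 and Snai2 have been linked to the timing of myogenic gene expression.

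All 26 Klf and Sp genes held the same pattern of 3 fingers, which spans 81 residues, in the mm9 transcripts of GENCODE vM1. The coding sequences of this stretch in Sp1, Sp2, Sp3 and Sp4 are shown because the stretch was used to compare Sp4 with its paralogues. Capitals mark the codons of the cysteines and histidines that hold the zinc, and each sequence starts at the first cysteine and ends at the last histidine.
Sp1: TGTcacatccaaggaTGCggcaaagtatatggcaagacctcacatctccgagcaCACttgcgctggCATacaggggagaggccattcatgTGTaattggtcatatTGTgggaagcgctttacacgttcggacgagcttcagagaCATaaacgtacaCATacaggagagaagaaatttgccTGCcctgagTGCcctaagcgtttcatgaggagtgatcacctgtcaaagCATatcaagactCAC
Sp2: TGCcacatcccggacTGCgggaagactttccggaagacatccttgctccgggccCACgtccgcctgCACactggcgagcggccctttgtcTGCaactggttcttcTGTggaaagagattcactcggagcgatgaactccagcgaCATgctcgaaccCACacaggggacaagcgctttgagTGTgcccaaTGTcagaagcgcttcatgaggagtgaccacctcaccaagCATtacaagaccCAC
Sp3: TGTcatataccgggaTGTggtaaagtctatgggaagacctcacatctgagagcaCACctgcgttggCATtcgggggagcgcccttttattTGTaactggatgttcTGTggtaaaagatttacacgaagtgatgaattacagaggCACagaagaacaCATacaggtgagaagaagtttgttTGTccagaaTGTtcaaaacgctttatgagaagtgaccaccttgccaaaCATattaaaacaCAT
Sp4: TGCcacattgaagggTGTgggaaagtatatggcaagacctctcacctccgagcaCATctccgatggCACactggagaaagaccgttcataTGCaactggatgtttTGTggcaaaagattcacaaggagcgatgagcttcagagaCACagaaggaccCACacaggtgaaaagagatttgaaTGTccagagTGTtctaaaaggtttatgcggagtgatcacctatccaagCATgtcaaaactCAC
The stretch is encoded in the last 2 exons of each gene, joined here without the intron. In mm9 it extends over chr15:102260425-102261235 on the plus strand for Sp1 (exons 5 and 6), chr11:96815805-96817251 on the minus strand for Sp2 (exons 6 and 7), chr2:72776360-72778762 on the minus strand for Sp3 (exons 6 and 7), and chr12:119476788-119493045 on the minus strand for Sp4 (exons 5 and 6).

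Read as protein, the fingers of Sp4 were most like those of Sp3, with 75 of 81 residues the same (92.6%). Sp8 followed at 90.1%, then Sp1 and Sp9 at 88.9%, Sp5 at 87.7%, Sp7 at 81.5%, Sp2 at 79.0% and Sp6 at 76.5%. No Klf gene came closer than Klf13, at 71.6%. Thus Sp2, though numbered with Sp1, Sp3 and Sp4, was among the less similar Sp genes in its fingers. At the level of bases Sp4 shared 75.3% with Sp1 and with Sp3. The longest run of identical bases was 20 between Sp4 and Sp1, 11 between Sp4 and Sp3 and 11 between Sp4 and Sp2.

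The authors called 32 of the 37 entries active, or 86.5%, against 70.2% of all 24165 entries. By gene, 29 of 34 symbols (85.3%) had an active entry, against 68.7% of all 20128 symbols. The inactive genes were Klf14, Klf15, Klf17, Sp9 and Wt1, and each has a single entry. Among the active entries the median activity was 1.12 RPKmM, with quartiles of 0.425 and 3.23, while all active entries had a median of 0.87 and quartiles of 0.22 and 1.99. With only the highest entry of each active gene, the median was 0.97 for the members and 0.87 for all genes. Of the 37 entries, 19 (51.4%) were at or above the median of all active entries, compared with 35.2% of the whole table, and 9 (24.3%) were at 3 RPKmM or higher, compared with 10.8%. These shares are descriptions of a named list and were not tested. At the lower end, 6 of the 37 entries were active but below 0.1, compared with 3143 of all 24165 entries. This difference was not tested either.

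**Figure D1:**
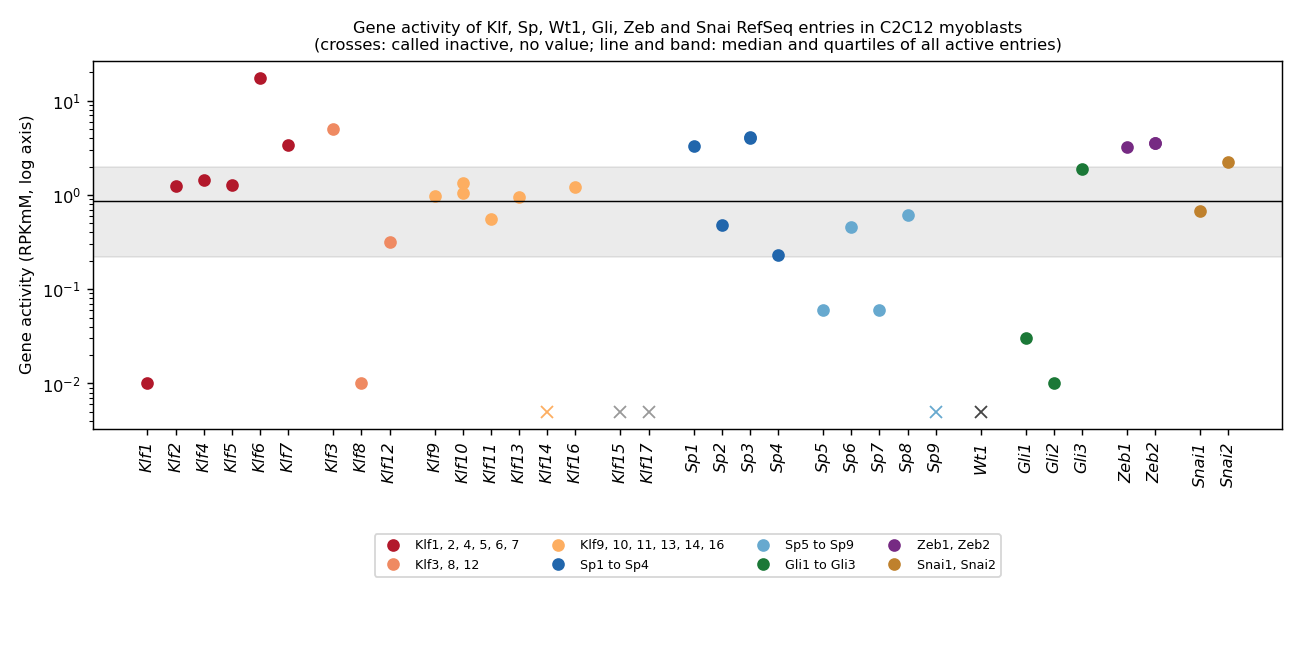
Gene activity (RPKmM, log axis) of each RefSeq entry of the 34 genes, grouped by family and cofactor group, with a point for each active entry of the pooled libraries and a cross for each gene called inactive. The line and band give the median and quartiles of all active entries. Klf6, at 17.55, stands above all other points, and Klf1, Klf8 and Gli2 are lowest at 0.01.

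The range across active members was wide, from 0.01 to 17.55 RPKmM. Klf6 (NM_011803, chr13:5860735-5869639, plus strand), an immediate early activator, had the highest activity, 17.55, above 98.6% of all active entries. Klf3 (NM_008453, chr5:65194628-65221368, plus strand), a CtBP-dependent repressor, was next at 5.03, and Sp3 followed with 4.13 and 4.04 for its 2 entries. Zeb2 was at 3.55 in both of its entries, Klf7 at 3.41, Sp1 at 3.33 and Zeb1 at 3.19. These 7 genes hold all 9 entries at 3 or higher, and they come from each of the activating Klf, CtBP-binding Klf, Sp1 to Sp4 and Zeb groups. Across the 29 active genes Spearman's rho of activity and gene span was 0.0628, as a description over genes that share the same libraries. The spans of all 34 genes in GENCODE vM1 ran from 2.62 kb (Klf2) to 279 kb (Klf12), and the shortest leave little sequence past the first kilobase.

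Other transcription factor families were less often active or less active. Sox genes, chosen by symbol, had 14 of 22 entries active (63.6%) with a median of 0.105, and Fox genes 25 of 46 (54.3%) with a median of 0.68. The Zfp genes, which also carry zinc fingers, were more often active, with 355 of 387 entries (91.7%), and had a median of 0.78. At 3 or higher were 27 Zfp entries (6.98%), a single Fox entry (2.17%) and 2 Sox entries (9.09%), compared with 24.3% of the Klf, Sp and related entries. None of these differences between families was tested, as genes are not replicates.

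**Figure D2:**
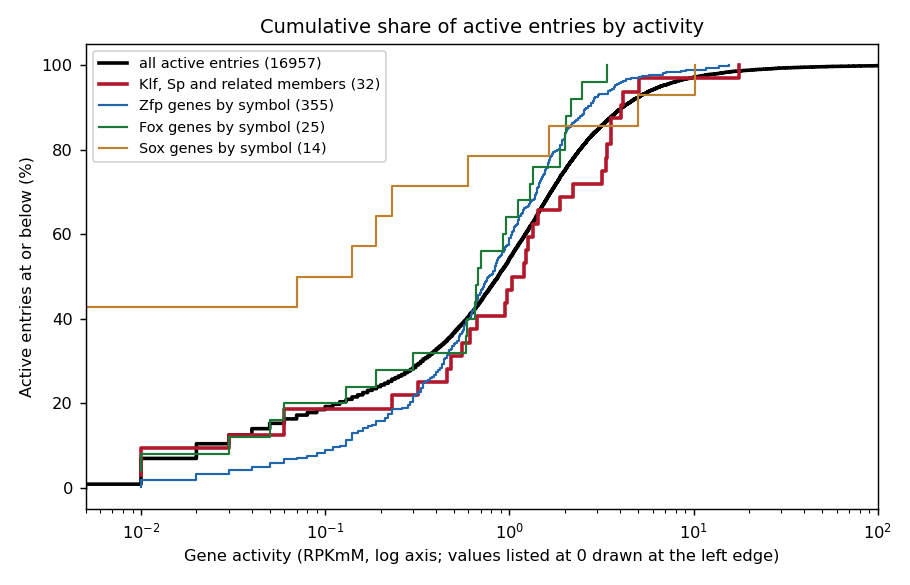
Cumulative share (%) of active entries at or below each activity (RPKmM, log axis) for all active entries, the Klf, Sp and related members, and Zfp, Fox and Sox genes chosen by symbol, with the number of active entries in brackets. The members' curve lies to the right of that of all active entries around 3 RPKmM, with quartiles of 0.425 and 3.23 against 0.22 and 1.99.

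The activating Klf genes were all called active, 6 of 6, against 70.2% of all entries, with a median of 1.35 RPKmM and a range from 0.01 (Klf1) to 17.55 (Klf6). Klf6 at 17.55 was 5.15 times as active as Klf7 at 3.41, although these are the closest Klf pair in their fingers, with 95.1% of residues the same. Klf4, a pluripotency factor, was at 1.43, Klf5, a factor of epithelial and muscle cells, at 1.27, and Klf2, an endothelial and lymphocyte factor, at 1.23. These 3 genes lay close together, above 64.7%, 61.0% and 60.1% of active entries, and their order has no replicate check. Klf2 and Klf4 share 91.4% of finger residues. Klf1, the erythroid factor, was called active but at 0.01, the lowest value above 0 in the table, which 93.0% of active entries exceeded. Erythroid markers gave little else, since Gata1 and Alas2 were inactive and Epor was at 0.08.

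Among the CtBP-binding genes, Klf3 was far above its relatives. Its activity of 5.03 RPKmM exceeded 92.4% of active entries and was 15.7 times that of Klf12, at 0.32. Klf8 was at 0.01. Because values are rounded to 2 decimals, the value of Klf8 before rounding may lie up to 0.005 to either side, and the ratio of Klf3 to Klf8 anywhere from 335 to 1007. The fingers of Klf3 share 91.4% of residues with Klf12 and 86.4% with Klf8. In GENCODE vM1, Klf12 and Klf8 span 279 kb and 159 kb and Klf3 spans 26.7 kb. These are spans of whole genes, and the transcript behind a value can be shorter, as for Klf8, which has a second RefSeq promoter well inside its span.

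The active Sin3-binding Klf genes lay close together. Their 6 active entries lay between 0.55 and 1.34 RPKmM with a median of 1.00, close to the 0.87 of all active entries. Klf10, a gene induced early by TGF-beta, had 2 entries, at 1.34 and 1.04, a ratio of 1.29 between transcripts of the same gene, which share sequence and are not independent. Klf16 was at 1.2, Klf9, a glucocorticoid-responsive gene, at 0.97, Klf13 at 0.95 and Klf11, a paralogue of Klf10, at 0.55. Klf10 and Klf11 have 86.4% of finger residues in common. Klf14, an imprinted gene without introns, was inactive, as were Klf15, a metabolic regulator of mature muscle and liver, and Klf17, a germ cell factor.

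Within Sp1 to Sp4 all 5 entries were active, against 70.2% of all entries, and Sp4 (NM_001166385) was lowest. Sp3 was highest at 4.13 and 4.04 RPKmM, Sp1 was at 3.33, Sp2 at 0.48 and Sp4 at 0.23. Sp3 and Sp1 lay in the upper range of active entries, above 90.1% and 86.5% of them, while Sp2 lay above 35.6% and Sp4 above 25.2%. Relative to Sp4, activity was 14.5 times as high for Sp1 and 2.09 times as high for Sp2, and rounding of the values allows 14.1 to 14.8 and 2.02 to 2.16. For Sp3 the ratio lay between 17.6 and 18.4, so rounding alone does not change this order. Sp3 and Sp1 differed by a ratio of 1.24, which cannot be judged without replicates. Sp4, a factor known for its role in neurons, is among the genes that the study classed as associated with the nuclear lamina. The study put it in the most active of its groups of active lamina-associated genes. Sp4 was the least active of the Sp1 to Sp4 genes, while its nearest relative by fingers, Sp3, was the most active. A link between lamina association and this order was not tested.

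**Figure D3:**
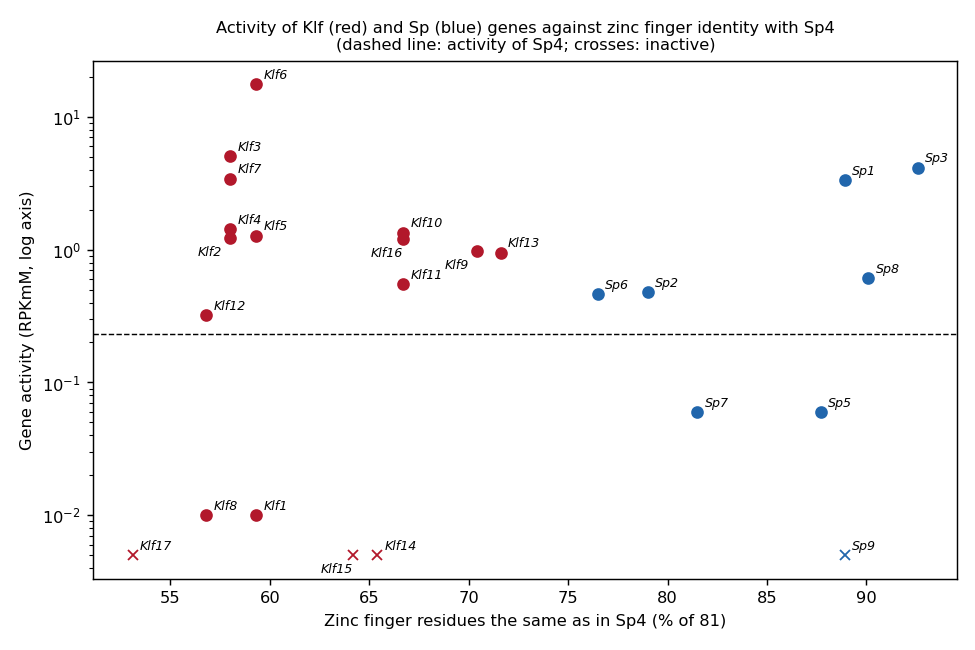
Gene activity (RPKmM, log axis; highest entry of each gene) of the other Klf and Sp genes against the share of their 81 zinc finger residues that are the same as in Sp4 (%). The dashed line is the activity of Sp4, 0.23. Of the 8 other Sp genes, Sp1, Sp2, Sp3, Sp6 and Sp8 lie above the line, Sp5 and Sp7 below it, and Sp9 is inactive (crosses at the bottom have no value).

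Sp5 to Sp9 were lower than Sp1 to Sp4 as a group. Their 4 active entries had a median of 0.26 RPKmM, and none reached the 0.87 of all active entries. Sp8, a factor of limb and forebrain development, was at 0.61, Sp6, a factor of tooth and hair development, at 0.46, and Sp5, a Wnt target, and Sp7, the osteoblast factor osterix, were both at 0.06. Sp9, a forebrain factor, was inactive. Sp4 therefore fell among these values and below Sp8 and Sp6. Sp8 and Sp9 share 98.8% of finger residues, the highest of any Klf or Sp pair, and only Sp8 was called active. In this stretch Sp9 shares a run of 78 identical bases with Sp5 and a run of 44 with Sp8. Reads that fall within such a run match both genes, and its part in the values was not tested.

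Each of Sp1 to Sp4 has an Sp gene of the other group on the same chromosome, transcribed away from it. These pairs differed in how alike their activities were. Distances and neighbours cover only the 17421 of 20128 table symbols that had a single position in GENCODE vM1. Sp1 at chr15:102236574-102266835 (plus strand, mm9) was at 3.33 RPKmM, and Sp7 at chr15:102187040-102197285 (minus strand), 39.3 kb away with no other placed gene between, was at 0.06, a ratio of 55.5. Sp3 at chr2:72774484-72818503 (minus strand) was at 4.13, and Sp9 at chr2:73109982-73122763 (plus strand), 291 kb away, was inactive. Sp5 lies on the same chromosome, 2459 kb from Sp3, and was at 0.06. Sp2 at chr11:96814654-96844273 (minus strand) and Sp6 at chr11:96874708-96886048 (plus strand), 30.4 kb apart, were nearly equal at 0.48 and 0.46. Sp4 at chr12:119473406-119539913 (minus strand) was at 0.23 and Sp8 at chr12:120084802-120091051 (plus strand), 545 kb away, at 0.61. This was the only one of these 4 pairs in which the Sp1 to Sp4 gene was lower, with Sp8 2.65 times as active (2.57 to 2.73 from rounding).

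The neighbours of the 4 genes were then compared by taking the nearest 3 placed genes on each side. Around Sp4, 5 of 6 neighbours were active, where 68.7% of all symbols were, and the active ones had a median of 0.33 RPKmM. Cdca7l was at 1.26, Sp8 at 0.61, Itgb8 at 0.33, Rapgef5 at 0.11 and Ptprn2 at 0.07, and Abcb5 was inactive. Thus Sp4 lay within the range of its neighbours, above 2 of the 5 active ones. Around Sp2, 5 of 6 neighbours were active with a median of 0.38, and 4 of these were below Sp2. Sp1 had 6 active neighbours with a median of 1.37 and a range from 0.01 (Amhr2) to 13.31 (Pcbp2). Sp3 was above each of its 3 active neighbours, which reached 1.83 at Ola1, and 3 of its 6 neighbours were inactive. The placed genes around Sp4 and Sp3 lie far apart, with gaps of 356 kb and 112 kb or more to the nearest placed neighbour. Sp1 and Sp2 have placed neighbours within 10 kb. Genes without a single position in GENCODE vM1 were left out and may lie within these gaps. D030028A08Rik overlaps Sp2 by 11721 bases on the opposite strand and was at 0.49, close to the 0.48 of Sp2. Among the genes placed, none overlapped a member on its own strand.

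**Figure D4:**
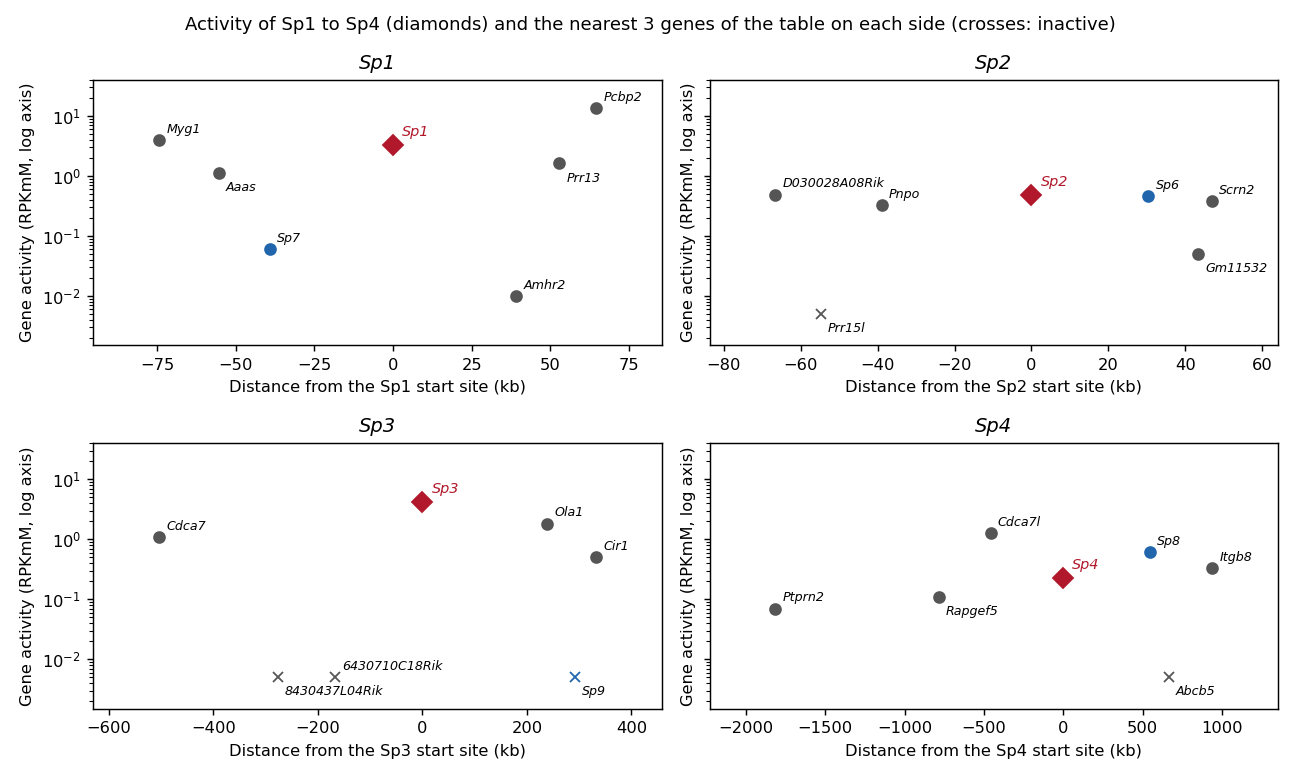
Gene activity (RPKmM, log axis) of Sp1, Sp2, Sp3 and Sp4 (diamonds) and of the nearest 3 placed genes of the table on each side (circles, Sp genes in blue; crosses at the bottom, inactive genes, which have no value) against the distance of their start sites (kb) in mm9. Sp3, at 4.13, lies above each of its own neighbours, and Sp4, at 0.23, lies among its neighbours.

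Because Klf and Sp proteins bind GC boxes and CACCC boxes, promoters of the members themselves were searched for these letters. RefSeq promoters, from 250 bases before to 50 after the start, were at hand for 24 of the 34 genes as 33 sequences, and each was placed in mm9 by its exact sequence. Promoters of Gli1, Klf5, Klf10, Klf14, Klf16, Snai2, Sp6, Sp7, Wt1 and Zeb1 were not used. The 250 bases before the start are shown for Sp3 and Sp4, the most and the least active of Sp1 to Sp4, and for Klf6 and Klf4, activating Klf genes that differ in activity. For Sp3, the sequence is that of the promoter at the outer edge of the gene. Capitals mark GGGCGG on either strand.
Sp3 (chr2:72818504-72818753, minus strand): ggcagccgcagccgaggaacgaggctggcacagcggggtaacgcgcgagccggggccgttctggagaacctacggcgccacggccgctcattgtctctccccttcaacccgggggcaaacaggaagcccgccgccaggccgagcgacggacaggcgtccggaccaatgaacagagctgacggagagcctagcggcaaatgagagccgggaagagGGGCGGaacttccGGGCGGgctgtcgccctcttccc
Sp4 (chr12:119539914-119540163, minus strand): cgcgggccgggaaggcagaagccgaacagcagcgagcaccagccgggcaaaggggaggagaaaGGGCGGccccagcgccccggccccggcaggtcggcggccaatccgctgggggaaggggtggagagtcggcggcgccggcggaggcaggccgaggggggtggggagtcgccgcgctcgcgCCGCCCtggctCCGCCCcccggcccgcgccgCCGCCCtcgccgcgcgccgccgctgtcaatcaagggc
Klf6 (chr13:5860485-5860734, plus strand): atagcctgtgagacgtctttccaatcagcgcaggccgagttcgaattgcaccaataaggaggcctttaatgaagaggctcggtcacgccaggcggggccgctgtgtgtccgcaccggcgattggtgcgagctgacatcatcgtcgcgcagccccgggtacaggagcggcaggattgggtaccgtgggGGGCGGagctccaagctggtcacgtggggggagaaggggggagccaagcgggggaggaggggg
Klf4 (chr4:55545348-55545597, minus strand): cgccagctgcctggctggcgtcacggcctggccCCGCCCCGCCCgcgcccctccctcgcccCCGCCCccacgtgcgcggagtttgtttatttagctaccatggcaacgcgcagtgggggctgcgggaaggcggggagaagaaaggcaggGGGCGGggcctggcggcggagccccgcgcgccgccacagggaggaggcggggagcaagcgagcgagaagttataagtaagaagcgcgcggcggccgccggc
Sp4, at 0.23 RPKmM, holds 4 such motifs in these bases, while Sp3, at 4.13, holds 2 in the promoter shown and 5 in its other promoter. Klf4, at 1.43, holds 4 and Klf6, at 17.55, holds 1. Among the sequences not shown, Sp1 holds 4 and Klf3 holds 6, the most in a single promoter of those searched. Klf8, at 0.01, also holds 1 in either of its promoters, and Klf17, which was inactive, holds 2.

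Over the whole promoter sequences, GGGCGG was found on either strand in 23 of the 33 member promoters (69.7%), against 35.7% of all 32851 RefSeq promoters and 60.1% of the 13423 promoters of genes with an active entry. The sequence CACCC was found in 25 (75.8%), against 57.5% of all promoters and 63.3% of those of active genes. It can overlap a GC box on the opposite strand by 2 bases. The E-box CACCTG, the sequence bound by Zeb and Snai factors, was found in 4 member promoters (12.1%, against 20.2% of all promoters and 18.2% of those of active genes), those of Snai1 and Klf12 and 1 each of Sp2 and Sp3. TATAAA was found in 2 (6.06%, against 13.6% of all promoters and 7.45% of those of active genes), a promoter of Sp8 and that of Klf12. Member promoters had a median of 61.0% G and C, compared with 52.7% for all promoters and 60.3% for those of active genes. The part of this base composition in the share with a GC box was not tested. Several promoters of a gene are not independent, as 2 of the 4 Zeb2 promoters overlap.

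Of the remaining factors, the Zeb genes were high and the Gli genes were split. Zeb1, at 3.19 RPKmM, and Zeb2, at 3.55 in both entries, both repressors of E-cadherin, lay above 85.8% and 87.6% of active entries and differed by a ratio of 1.11. Snai2 was at 2.22 and Snai1 at 0.67, a ratio of 3.31. Both Snai genes are short, with 2.54 kb (Snai2) and 3.62 kb (Snai1) of span past the first kilobase. Wt1, a factor of kidney and gonad development related to the Egr genes, was inactive.

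In the list of epithelial and mesenchymal genes, 9 of the 19 genes present were active (47.4%, against 68.7% of all symbols). Vim, the intermediate filament vimentin, was highest at 146.13 RPKmM, and Fn1, fibronectin, was at 66.28. Cdh2, N-cadherin, was at 2.38, Tjp1 at 1.57 and Twist2 at 1, and Twist1 was lowest of the active genes at 0.01. Cdh1, the E-cadherin gene that Zeb and Snai proteins repress, was at 0.02, as was Cldn1, and Ocln was at 0.06. Epcam, Cldn7, Crb3, Krt8, Krt18, Esrp1, Esrp2, Grhl2, Ovol1 and Ovol2 were all inactive. Of the epithelial genes in this list, Tjp1 alone was above 0.1.

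Gli3, which is largely processed to a repressor without Hedgehog ligand, was at 1.88 RPKmM and above 73.3% of active entries. Gli1, itself a target of the pathway, was at 0.03 and Gli2 at 0.01, so Gli3 was 62.7 times as active as Gli1 (53.6 to 75.4 from rounding). Of the Hedgehog list, 17 of 18 genes were active (94.4%, against 68.7% of all symbols), with a median over active entries of 0.90, close to the 0.87 of the whole table. The ligands were at the bottom, with Shh at 0.01, Ihh at 0.02 and Dhh inactive. The coreceptors Gas1 and Cdon were at 6.33 and 5.02, the highest of the list, while the coreceptor Boc was at 0.35. Among receptors, Smo was at 1.99 and Ptch1 at 0.96. Sufu, which restrains the Gli proteins, was at 0.68.

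All 14 genes in the list of Klf and Sp cofactors were active, against 68.7% of all symbols. Their 21 entries had a median of 1.13 RPKmM, and 17 of them were at or above the median of all active entries, against 35.2% of the table. Ogt, the enzyme that adds N-acetylglucosamine to Sp1 and many nuclear proteins, was highest at 6.68 and 6.66. The CtBP genes that serve Klf3 were at 1.34 for Ctbp1 and at 2.38 and 0.58 for the 2 entries of Ctbp2, the latter being the lowest entry of the list. Sin3a was at 1.53 and 1.46 and Sin3b at 1.15 and 0.87. The acetyltransferases Ep300 and Crebbp were at 2.78 and 2.27, and the ubiquitin ligase genes Fbxw7 and Wwp1, whose products target Klf5, reached 1.1 and 1.04.

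Of the related zinc finger genes outside the member list, 9 of 15 were active, against 68.7% of all symbols. Egr1 was highest at 3.66 and Snai3 lowest of the active ones at 0.01. Egr4, Zic2, Zic5, Scrt1 and Scrt2 were among the inactive genes. Glis2 and Glis3, relatives of the Gli genes, were at 1.35 and 0.83, and Glis1 was at 0.06.

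**Figure D5:**
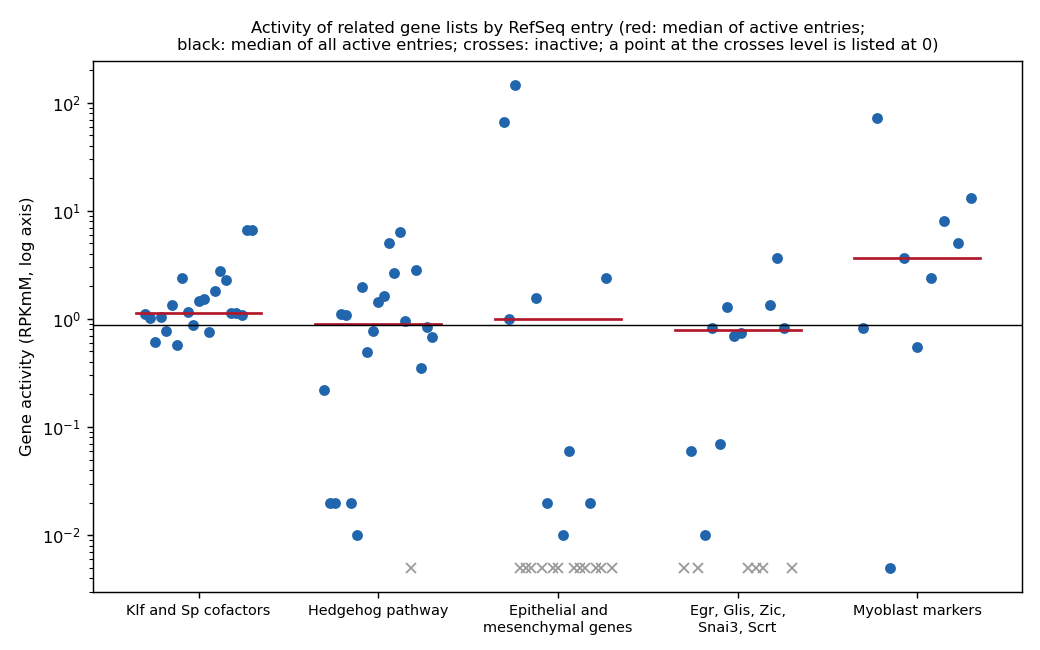
Gene activity (RPKmM, log axis) by RefSeq entry of cofactor genes, Hedgehog genes, epithelial and mesenchymal genes, related zinc finger genes and myoblast markers. Red bars give the median of the active entries of each list, from 0.785 for related zinc finger genes to 3.63 for myoblast markers, the black line gives that of all active entries, and crosses are inactive entries.

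The label of the cells was checked against markers. All 9 myoblast markers were called active, against 68.7% of all symbols. Des was at 72.45 RPKmM, Itga7 at 13.29, Cdh15 at 8.08, Myf5 at 5.03 and Myod1 at 2.39. However, Pax3 was listed at 0 and Pax7 was at 0.55. The 5 genes of differentiating myotubes were active too, from 0.2 (Ckm) to 6.85 (Acta1), with Myog at 2.39. Active genes were 2 of 5 in the endothelial list and 1 of 5 in the epithelial list. In the leukocyte and erythroid lists, 1 of the 4 genes present was active in each. None of these was above 0.08. Of 5 neuronal genes, Stmn2, Map2 and Syp were active, at up to 0.62, and Snap25 and Rbfox3 were inactive.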

How the data were processed

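The authors made 2 replicate GRO-seq libraries from C2C12 myoblasts. Per the labels and the methods, CASAVA 1.8 and Bowtie2 were used and reads were mapped to mm9. Reads that failed were shortened stepwise and mapped again, unique alignments were kept, rRNA and tRNA repeats were removed, and the libraries were pooled. The deposited table gives each RefSeq entry a value in RPKmM (RPKM over mappable bases, with 2 decimals) or the word Inactive, which marks entries that did not pass a Poisson test against the mean density of gene deserts. Pooling hides variation between libraries, so no mean, error or test was computed, and unique mapping can leave sequence shared by paralogues uncounted.

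Counts, medians, quartiles and ratios over entries were computed with Python 3.11.15, numpy 2.4.6, pandas 2.3.3, scipy 1.17.1 and matplotlib 3.10.9. Ratios used the highest entry of a gene, and rounding bounds moved each value by 0.005. Positions came from GENCODE vM1 (mm9), and all 34 members were found there. Finger identity was counted residue by residue from the longest coding sequence. Promoters were those of RefSeq (GRCm38.p6), placed in mm9 by exact match. The motif search was tested on simulated data and found the planted motifs in 200 of 200 sequences. The genes named were all members, the highest, lowest and inactive genes of each list, and the 3 nearest neighbours on each side of Sp1 to Sp4, while further list genes were named for their function after their values were seen. Some genes of the lists are not reported here. The members and lists were chosen with earlier results of these data known. Alternatives were a single entry per gene, other cutoffs for active entries, other summaries, and a single strand for motifs.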

Additional observations from a re-analysis of the deposited data

How the results depend on the processing

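Of 33 alternatives, 11 moved a value by more than 1.5 times and 22 did not. The 32 active entries became 19 when only entries at or above the median of all active entries were counted, by the construction of that limit. The median activity of 1.12 RPKmM became 0.732 and 0.684 as a geometric mean with a pseudocount of 0.01 and 0.001, summaries that give more weight to the lowest entries. With a single entry per gene, by its highest or its mean, the median of Sp1 to Sp4 fell from 3.33 to 1.91, since Sp3 then counted once. On the given strand alone, GGGCGG was found in 15 promoters, CACCC in 15, CACCTG in 1 and TATAAA in 1. Against promoters of genes with an active entry, the background share moved from 35.7% to 60.1% for GGGCGG and from 13.6% to 7.45% for TATAAA. The ratios of Sp1, Sp2 and Sp3 to Sp4 stayed within 1.5 times under the 4 alternatives tried for each. As the libraries were pooled in the table, no replicate could be left out, and values near 0.01 are limited by rounding.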
